A study of Mus musculus with 11 samples.

Results

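The 10 genes described here encode protein-folding machinery of the endoplasmic reticulum (ER), 1 transcription factor of its unfolded protein response and 1 chaperone of collagen maturation. They were followed in muscle stem cells of middle-aged and geriatric mice. The members were given by name and are Hspa5, Hsp90b1, Pdia3, Pdia4, Pdia6, Calr, Canx, Hyou1, Xbp1 and Serpinh1. All 10 were found among the 20640 genes of the expression table, and all 10 were among the 11568 genes that reached the level needed for testing (1 RPKM or more in at least 2 libraries). RPKM is a read count normalised to gene length and sequencing depth, so levels of different genes can be set side by side per length.

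The series holds 11 RNA-seq libraries of YFP+ cells sorted from limb muscle of Pax7-CreERT2;Rosa-YFP mice. In this genotype tamoxifen-activated Cre, driven from the Pax7 locus, switches on YFP, so the label marks cells that expressed Pax7 at 12 to 14 weeks of age, when all animals received tamoxifen orally (240 mg/kg for 5 days). The sort also removed cells carrying Sca-1, CD31 or CD45. Middle-aged mice gave 3 libraries whose titles name no VCAM1 gate; their age is 10 to 14 months in the sample labels and 12 to 14 months where the tissue preparation is described. Geriatric mice (over 28 months) gave 3 VCAM1-high, 2 VCAM1-low and 3 VCAM1-negative libraries, with gates set on the middle-aged cells. The submitters' design note names the geriatric gates High, Mid and Low/-, and how these map onto the titles used here is not stated. Comparisons with the middle-aged group change age, gate and time since labelling together, so these cannot be told apart. Whether each replicate came from its own animal is not in the labels, so the p-values cover the spread among these libraries alone, which may be technical.

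Secreted and membrane proteins fold in the ER lumen. Hspa5 (BiP) and Hsp90b1 (GRP94) bind unfolded chains, Hyou1 (GRP170) drives nucleotide exchange on Hspa5, and the disulfide isomerases Pdia3, Pdia4 and Pdia6 form and rearrange disulfide bonds. Calr and Canx are lectin chaperones that hold glycoproteins and work with Pdia3. Xbp1 encodes a transcription factor of the unfolded protein response that becomes active after the sensor Ern1 (IRE1) splices its mRNA. Serpinh1 (HSP47) binds the procollagen triple helix and is the collagen-specific chaperone. Muscle stem cells make several collagens of their own niche.

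The promoters of this family are known for the ER stress response element, abbreviated ERSE, in which a CCAAT box and a CCACG stand 9 bases apart (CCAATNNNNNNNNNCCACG). The stretches that hold it are shown because 7 members hold this element in full or without its last base. RefSeq promoter windows of build GRCm38.p6, each 250 bases before to 50 bases after a gene's start, were at hand for 9 of the 10 members. Hyou1 had no entry. The windows shown lie at chr2:34772005-34772063 on the plus strand for Hspa5, chr10:86705513-86705676 on the minus strand for Hsp90b1, chr12:17266471-17266529 on the plus strand for Pdia6, chr8:84847055-84847113 on the minus strand for Calr and chr11:50325780-50325838 on the minus strand for Canx. Those of Pdia3 (chr2:121413853-121413901, plus strand) and Pdia4 (chr6:47813582-47813639, minus strand) match the element without its last base. Each is written 5′ to 3′ on the strand of its gene, upstream of the start, with the fixed letters of the element in capitals. A match on the other strand reads CGTGG and ATTGG in place of CCAAT and CCACG.
Hspa5: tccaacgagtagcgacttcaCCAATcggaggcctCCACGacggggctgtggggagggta
Hsp90b1: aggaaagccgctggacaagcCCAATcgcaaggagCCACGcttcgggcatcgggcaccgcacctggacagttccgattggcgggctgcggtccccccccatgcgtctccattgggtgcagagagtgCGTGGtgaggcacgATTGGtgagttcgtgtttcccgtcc
Pdia6: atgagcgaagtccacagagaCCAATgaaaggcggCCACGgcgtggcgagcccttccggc
Calr: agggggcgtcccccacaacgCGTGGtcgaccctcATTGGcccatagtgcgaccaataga
Canx: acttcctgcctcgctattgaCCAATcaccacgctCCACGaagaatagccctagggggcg
Pdia3: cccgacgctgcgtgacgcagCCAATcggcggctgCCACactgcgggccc
Pdia4: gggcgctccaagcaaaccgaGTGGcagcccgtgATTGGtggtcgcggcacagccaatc

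On either strand the full element was found in 5 of the 9 member windows, against 0.119% of 32851 promoter windows of the same length. Hsp90b1 held 2 copies, 1 on each strand. Without its last base (CCAATNNNNNNNNNCCAC, which the full element contains) it was found in 7 of 9 windows, against 0.365% of all windows. Neither Xbp1 nor Serpinh1 held it. The related elements ERSE-II (ATTGG and CCACG with 1 base between them, in 0.0365% of all windows) and the core of the unfolded protein response element (TGACGTGG, in 0.676%) were found in 0 of the 9. A CCAAT box alone, which the longer elements contain, stood in 7 of 9 member windows and in 37.4% of all windows. The family is already known for the ERSE, so its share among the members is not an independent finding. These matches describe letters in a window and do not show binding.

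RPKM summed to between 413666 and 455394 per library, and 10395 to 11171 genes reached 1 RPKM. Steps in the lowest values put the depth at about 20.1 to 29.8 Mreads (M for mega) per library, an estimate that rests on transcript lengths of another annotation than the authors'. A single read on a gene of 1 kb is worth 0.0499 RPKM at the smallest of these depths, far under the level of every member. The 8 markers of muscle stem cells (Pax7, Myf5, Vcam1, Cdh15, Itga7, Sdc4, Calcr and Chodl) had summed levels of 2798 to 3694 RPKM in the middle-aged group, with 1875 to 3764 for VCAM1-high, 1872 to 2279 for VCAM1-low and 1388 to 2109 for VCAM1-negative libraries, and none was at 0. Chodl and Sdc4 made up most of each sum. Vcam1 encodes the gated protein (188 to 418 RPKM in VCAM1-high, 48.6 to 122 in VCAM1-negative), so the sum is not independent of the gates. Pax7 itself stood between 5.75 and 7.85 RPKM in the middle-aged group, and VCAM1-negative replicate 2 had the lowest value at 1.71 RPKM. Transcripts of mature myofibers moved with the VCAM1-negative group. The 11 myofiber markers summed to 642, 6619 and 5303 RPKM there and to at most 311 in any other library, with none at 0 in any library. In bulk samples fewer cells of a type and less RNA per cell cannot be told apart.

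Hspa5 was the most abundant member, at a mean of 1679 RPKM over the 11 libraries and rank 21 of the 11568 genes tested. Xbp1 followed at 382 RPKM and Calr at 301, and Pdia3 (215) and Hsp90b1 (211) came next with overlapping ranges. Pdia6 (123) and Serpinh1 (121) were also close, with Canx at 72.3, Pdia4 at 43.9 and Hyou1 at 5.37. The spread over libraries differed far more than the order implies. The highest library exceeded the lowest by 1.42-fold for Xbp1 and 1.61-fold for Hspa5, by 6.71-fold for Pdia4 and by 21.4-fold for Serpinh1. Middle-aged replicate 1 was the highest of the 11 libraries for 8 of the 10 members, all but Hspa5 and Xbp1.

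**Figure D1:**
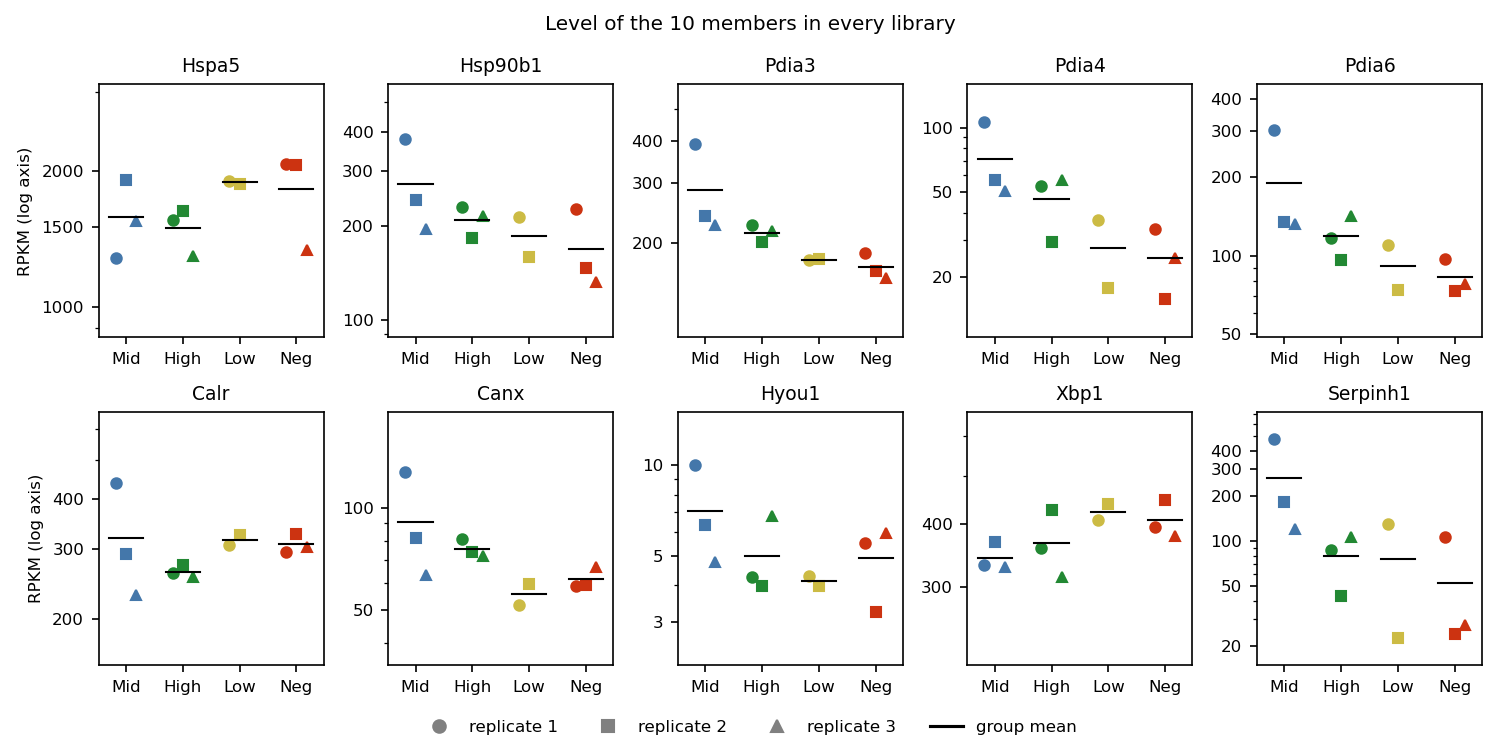
RPKM (log axis, a separate range for each gene) of the 10 members in every library, by group (Mid, middle-aged; High, Low and Neg, the VCAM1 gates of geriatric mice); symbols give the replicate number and black lines the group means (n = 3, 3, 2 and 3). Middle-aged replicate 1 stands above the other libraries for 8 members, and Pdia3, Pdia4, Pdia6 and Serpinh1 are lower in all 3 VCAM1-negative libraries than in any middle-aged one.

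Serpinh1, the collagen chaperone, showed the widest range. It stood at 480, 183 and 120 RPKM in the middle-aged libraries, at 86.7, 42.9 and 107 in the VCAM1-high, at 129 and 22.4 in the VCAM1-low and at 106, 23.8 and 27.5 in the VCAM1-negative libraries. Every VCAM1-high and VCAM1-negative library was below every middle-aged one, and in each geriatric gate 1 library differed from another by 2-fold or more. The group means were 261 ± 193 (SD, n = 3) in middle-aged and 52.6 ± 46.6 (n = 3) in VCAM1-negative libraries. VCAM1-negative against middle-aged gave a log2 fold change of -2.38 ± 0.74 (SE) on the log2(RPKM + 1) scale, with a limma adjusted p of 0.053, just outside the threshold of 0.05. With VCAM1-high against middle-aged it was -1.56 ± 0.74 (adjusted p = 0.354), and with VCAM1-negative against VCAM1-high it was -0.82 ± 0.74 (adjusted p = 0.883).

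Among the disulfide isomerases, Pdia4 varied most. It stood at 106, 57.3 and 50.6 RPKM in the middle-aged libraries, at 53.4, 29.1 and 56.9 in the VCAM1-high, at 37.2 and 17.9 in the VCAM1-low and at 33.7, 15.8 and 24.7 in the VCAM1-negative libraries. The VCAM1-negative values all lay below the middle-aged ones, while VCAM1-high overlapped both groups. Pdia4 was lower by 1.47 ± 0.39 on the log2 scale (log2 fold change -1.47, adjusted p = 0.0336) in VCAM1-negative than in middle-aged cells, to 24.7 ± 8.97 from 71.3 ± 30.3 RPKM (SD, n = 3 each).

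Pdia6 stood at 303, 134 and 133 RPKM in the middle-aged libraries, at 117, 96.6 and 142 in the VCAM1-high, at 109 and 73.5 in the VCAM1-low and at 97.2, 73.0 and 78.1 in the VCAM1-negative libraries. Middle-aged replicate 1 was more than 2-fold above the other middle-aged libraries. The log2 fold change of VCAM1-negative against middle-aged was -1.09 ± 0.31 (adjusted p = 0.0426). Pdia3, which works on glycoproteins held by Calr and Canx, stood at 394, 240 and 226 RPKM in the middle-aged libraries, at 225, 201 and 216 in the VCAM1-high, at 177 and 178 in the VCAM1-low and at 186, 165 and 157 in the VCAM1-negative libraries. The lowest middle-aged library (226) stood just above the highest VCAM1-high one (225), and all VCAM1-low and VCAM1-negative libraries lay lower still. Its log2 fold change between VCAM1-negative and middle-aged was -0.71 ± 0.21 (adjusted p = 0.0441).

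None of the chaperones that bind unfolded chains passed in this comparison. Hspa5 stood at 1285, 1908 and 1550 RPKM in the middle-aged libraries, at 1558, 1628 and 1294 in the VCAM1-high, at 1899 and 1875 in the VCAM1-low and at 2074, 2063 and 1334 in the VCAM1-negative libraries. The groups overlapped, and 2 of the VCAM1-negative libraries were the highest of all. Its log2 fold change was 0.20 ± 0.22 (adjusted p = 0.552) for VCAM1-negative against middle-aged. Hsp90b1 stood at 379, 241 and 195 RPKM in the middle-aged libraries, at 229, 183 and 215 in the VCAM1-high, at 214 and 158 in the VCAM1-low and at 226, 146 and 132 in the VCAM1-negative libraries. VCAM1-negative replicate 1 lay inside the middle-aged range, and the log2 fold change of -0.68 ± 0.27 did not pass (adjusted p = 0.111). Hyou1, the partner of Hspa5, was low throughout at 3.25 to 10.0 RPKM, with a log2 fold change of -0.43 ± 0.28 (adjusted p = 0.304).

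The lectin chaperones stayed within narrow ranges in the geriatric gates. Calr stood at 440, 291 and 231 RPKM in the middle-aged libraries, at 260, 274 and 256 in the VCAM1-high, at 307 and 326 in the VCAM1-low and at 294, 326 and 304 in the VCAM1-negative libraries. All VCAM1-low and VCAM1-negative values were above all VCAM1-high values, though within the middle-aged range. Canx, the membrane-bound counterpart, went the other way between the gates, at 80.8, 74.1 and 72.0 RPKM in the VCAM1-high libraries against 51.8 and 59.6 for VCAM1-low and 58.8, 59.5 and 66.8 for VCAM1-negative, beside 127, 81.7 and 63.3 for middle-aged cells. For VCAM1-negative against VCAM1-high, the log2 fold change of Calr was 0.22 ± 0.21 (adjusted p = 0.883) and that of Canx -0.29 ± 0.23 (adjusted p = 0.870), so neither passed.

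Xbp1 was the steadiest member and had its higher levels where the isomerases were lower. It stood at 332, 368 and 328 RPKM in the middle-aged libraries, at 359, 427 and 314 in the VCAM1-high, at 407 and 438 in the VCAM1-low and at 396, 447 and 379 in the VCAM1-negative libraries. All 3 VCAM1-negative libraries were above all 3 middle-aged ones, with a log2 fold change of 0.25 ± 0.16 that did not pass (adjusted p = 0.307). Gene-level RPKM counts spliced and unspliced Xbp1 mRNA together, so the active form was not measured.

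Put side by side, 3 of the 10 members (Pdia3, Pdia4 and Pdia6) fell and none rose in VCAM1-negative against middle-aged libraries, where 14.4% of all genes tested were called (817 higher, 854 lower). The median log2 fold change was -0.58 over the members and -0.02 over all genes. Values of the VCAM1-negative libraries were all below the middle-aged ones for 4 members, those 3 and Serpinh1, where 20.3% of all genes lay so, and all above for Xbp1, where 18.7% did. The 3 calls rested on few libraries. Without middle-aged replicate 1 the log2 fold changes of Pdia3, Pdia4 and Pdia6 were -0.46, -1.15 and -0.69 and 0 members passed, and 0 passed without VCAM1-negative replicate 2 or without VCAM1-negative replicate 3. Without middle-aged replicate 2 only Pdia6 passed, and without VCAM1-high replicate 1 only Pdia4, although the latter library belongs to neither group and enters through the shared estimate of spread. Myofiber transcripts were higher in the VCAM1-negative group (9 of 11 markers passed, all higher). The 3 erythroid markers in the table were also higher in every VCAM1-negative library than in any middle-aged one, though 0 of 3 passed. The part of either in the result was not tested.

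VCAM1-high against middle-aged cells gave 0 of 10 members called, where 0.605% of all genes were called (55 higher, 15 lower). The member means were lower in VCAM1-high for 9 of 10, with a median log2 fold change of -0.35 against 0.04 over all genes. Serpinh1 and Pdia3 were lower in every VCAM1-high library than in any middle-aged one (2 of 10 members), against 6.36% of all genes. Same-numbered libraries of these groups deviated together from their group means (r = 0.211, 0.332 and 0.554). The number did not set them apart cleanly, since middle-aged replicate 2 and VCAM1-high replicate 1 reached 0.331. These groups differ in age, so a number cannot mark a shared animal here. A fit with the replicate number as a block called 6.98% of genes and still 0 members. The smallest adjusted p among members in that fit was 0.0613, for Serpinh1. Macrophage markers (9 genes) summed to 842 RPKM in VCAM1-high replicate 3 and to 2.63 and 15.2 in the other VCAM1-high libraries, with 4 of the 9 at 0 in replicate 1. Endothelial markers (8 genes) summed to 274 RPKM in middle-aged replicate 3 and to at most 143 elsewhere, with none at 0. With both replicates 3 left out, an alternative added after the data were seen, the members called were again 0 in this comparison. In VCAM1-negative against middle-aged Serpinh1 then joined the isomerases (4 members). Its limma adjusted p was 0.0473 there and 0.053 with all libraries. The share of all genes called in that setting is not given, so the 4 members cannot be set against it. Leaving out both replicates 3 takes out the lowest middle-aged Serpinh1 value (120 RPKM). It keeps VCAM1-negative replicate 3, whose macrophage sum (208 RPKM) was above that of middle-aged replicate 3 (136 RPKM).

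**Figure D2:**
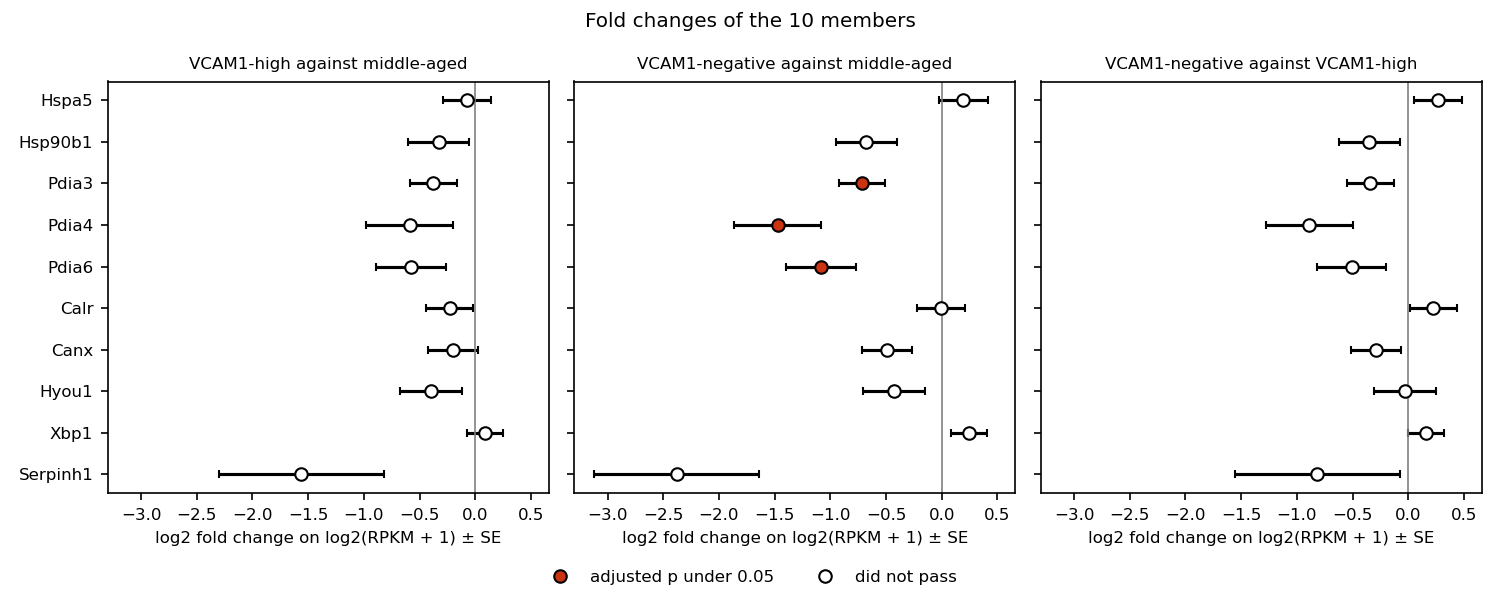
Log2 fold change of each member on the log2(RPKM + 1) scale with its standard error in the main comparisons; filled points passed at an adjusted p under 0.05. Pdia3, Pdia4 and Pdia6 are filled in VCAM1-negative against middle-aged, and no point is filled in the other panels; each pair of panels shares a group of libraries.

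Between the outer gates of the geriatric mice, which share an age, 0 of 10 members were called, as were 0% of all genes (smallest limma adjusted p 0.0501, with 755 genes and 1 member, Pdia4, at an unadjusted p under 0.05). The VCAM1-negative libraries were all below the VCAM1-high ones for Pdia3 and Canx (2 of 10, against 8.08% of genes), and all above for Calr (1 of 10, against 3.28%). Same-numbered libraries of these gates deviated together, and differences were read number by number on that basis. The labels do not say what a number marks, so this pairing comes from these same data. Hsp90b1, Pdia3, Pdia4, Pdia6 and Canx were lower in VCAM1-negative at all 3 numbers (5 of 10 members, against 30.6% of genes), and Hspa5, Calr and Xbp1 were higher at all 3 (3 of 10, against 13.4%). Pdia4 differed by -0.65, -0.84 and -1.17 at numbers 1, 2 and 3 on the log2(RPKM + 1) scale, at each number the largest among members that kept 1 direction. Serpinh1 differed by 0.29, -0.82 and -1.92, so its numbers disagreed in direction.

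**Figure D3:**
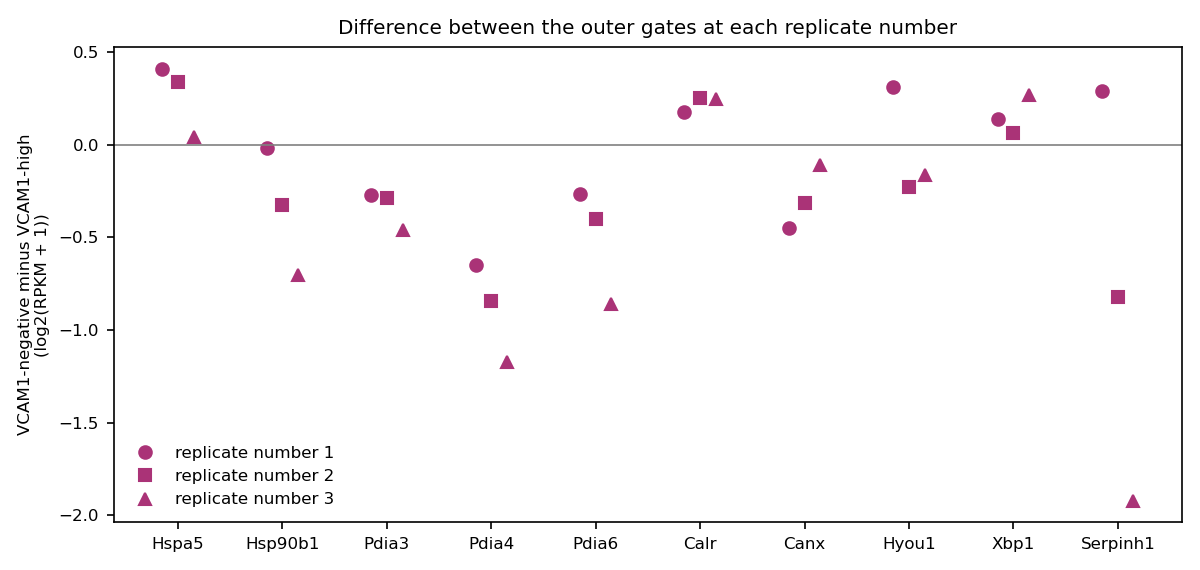
Difference in log2(RPKM + 1) between the VCAM1-negative and the VCAM1-high library of the same replicate number (symbols), for each member, with 0 marked by a line. Pdia4 lies at -0.65, -0.84 and -1.17, Hspa5, Calr and Xbp1 lie above 0 at every number, and Serpinh1 spreads from -1.92 to 0.29.

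With the replicate number as a block, the fit of the 8 geriatric libraries called Pdia4 alone among the members (log2 fold change -0.89 ± 0.12, adjusted p = 0.0174), where 4.42% of genes were called. Pdia6 had an adjusted p of 0.078 and Pdia3 of 0.101 in that fit. The block fitted over all 11 libraries called 0.562% of genes and 0 members, with an adjusted p of 0.108 for Pdia4. The 11 myofiber markers were all higher in every VCAM1-negative library than in any VCAM1-high one, and their part in these differences was not tested. At numbers 1, 2 and 3 the myofiber sums were 642, 6619 and 5303 RPKM in VCAM1-negative libraries. They were 55.2, 104 and 129 RPKM in VCAM1-high libraries. Pdia4 differed by -0.65, -0.84 and -1.17 at these numbers.

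The VCAM1-low gate has 2 libraries. No member was called against VCAM1-high (0% of genes), against VCAM1-negative (0%) or against middle-aged cells (4.11%). The limma F test of any difference among the 4 groups called 3.32% of genes and 0 members, with its smallest member value for Pdia4 (adjusted p = 0.114). Levels in VCAM1-low of Pdia4 (27.5 ± 13.7 RPKM, SD, n = 2), Pdia3 (178 ± 0.866) and Pdia6 (91.5 ± 25.5) stood beside 24.7 ± 8.97, 169 ± 15.3 and 82.8 ± 12.8 in VCAM1-negative libraries (n = 3). The myofiber markers summed to 49.7 and 148 RPKM in VCAM1-low libraries, and their part in the member differences was not tested. The 3 erythroid markers in the table summed to 523 and 650 RPKM in VCAM1-low, 194 to 650 in VCAM1-negative, 14.0 to 488 in VCAM1-high and 5.77 to 165 in middle-aged libraries, with none at 0. All 3 were higher in both VCAM1-low libraries than in any middle-aged one, though 0 of 3 passed, and their part in the member differences was not tested.

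Replicates 1 and 2 differed in the same direction in every group for some members. Pdia4 was higher in replicate 1 than in replicate 2 by 1.85-fold in the middle-aged group and by 1.83-, 2.08- and 2.14-fold in the high, low and negative gates. Serpinh1 was higher by 2.62-, 2.02-, 5.77- and 4.46-fold in the same order. For Hspa5 the ratio was 0.674 in middle-aged and 0.957, 1.01 and 1.01 in the geriatric gates. Replicate 3 kept no such place, since for both Pdia4 and Serpinh1 it was the highest VCAM1-high library and the lowest middle-aged one. Hspa5 was lowest at replicate 3 in VCAM1-high and VCAM1-negative.

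Across the 11 libraries 5 members formed a block, which was picked from these same correlations and has no sharp edge. Hsp90b1, Pdia3, Pdia4, Pdia6 and Serpinh1 correlated with each other at Pearson's r of 0.835 to 0.955 (10 pairs), and at 0.636 to 0.934 after the group means were taken off. Canx correlated with these 5 at 0.607 (Serpinh1) to 0.894 (Pdia3), and Hyou1 at 0.693 to 0.809. Xbp1 correlated with these 5 at -0.84 to -0.558 and Hspa5 at -0.543 to -0.248, and after the group means were taken off at -0.682 to -0.198 and at -0.453 to -0.003. Hspa5 and Xbp1 correlated at 0.726, and at 0.649 after that step. Calr correlated at 0.465 with Canx, and at 0.942 once group means were taken off. These values describe 11 libraries that share the group differences, the replicate numbers and the extreme middle-aged replicate 1. Of the 5 genes in the block, Hsp90b1 and Pdia6 hold the full promoter element and correlated at 0.918, Pdia3 and Pdia4 hold it without its last base, and Serpinh1 holds neither form in its window. Of the other members with the full element, Hspa5 correlated at -0.248 with Hsp90b1, Calr at 0.357 and Canx at 0.713.

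**Figure D4:**
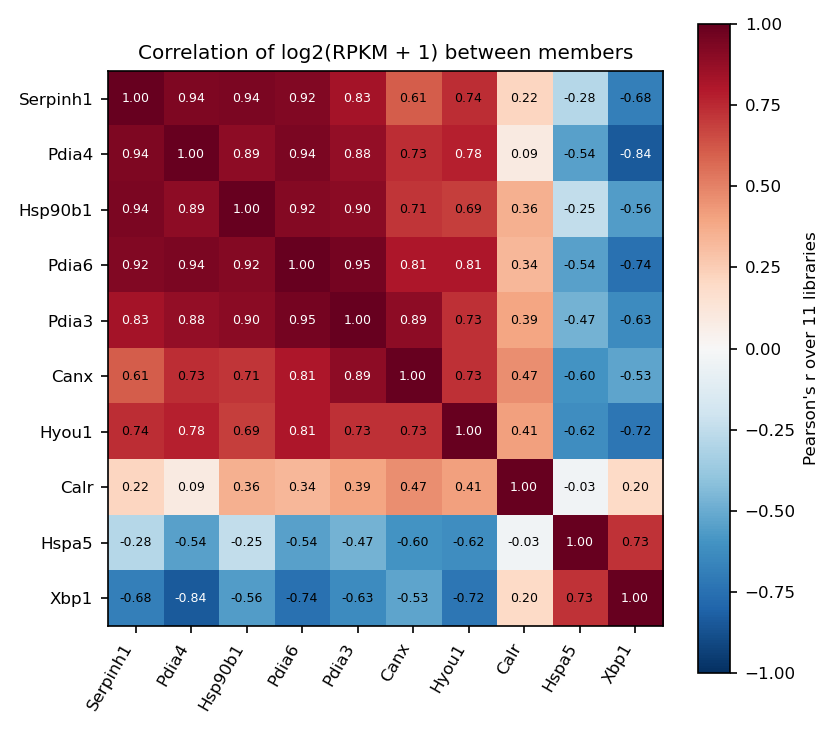
Pearson's r of log2(RPKM + 1) over 11 libraries for each pair of members (red positive, blue negative). Serpinh1, Pdia4, Hsp90b1, Pdia6 and Pdia3 form a block at 0.835 and above, and Xbp1 is negative with each of them. Canx reaches 0.894 with Pdia3, so the block has no sharp edge.

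Outside the 10, the gene whose profile was most like the members' mean (z-scores of log2(RPKM + 1) averaged over the 10) was Prmt1, an arginine methyltransferase, at r = 0.962 over 11 libraries among 7517 genes with a mean of at least 5 RPKM. It stood at 171 RPKM in middle-aged replicate 1, 76.4 in middle-aged replicate 3 and 58.1 to 75.3 in the VCAM1-negative libraries, so it too peaked in middle-aged replicate 1. Mrpl48 (0.934), Sdf2 (0.912), Cks1b (0.906), Creld2 (0.905), Banf1 (0.904), Capns1 (0.903) and Map2k1 (0.898) followed. Sdf2 and Creld2 encode ER lumenal proteins. Closest to Xbp1 alone were Id1 (0.973), Fnip1 (0.97), Rbm7 (0.969) and Eif1 (0.964), and closest to Serpinh1 alone Ifi27 (0.96), Psmg1 (0.958), Rab24 (0.95) and Bcl2l12 (0.95).

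Part of the remaining ER folding machinery fell as well. Of 28 other ER folding genes tested, 8 fell and 1 rose in VCAM1-negative against middle-aged libraries (median log2 fold change -0.55, against -0.02 over all genes). Over all genes tested, 7.38% were called lower and 7.06% higher in this comparison. Ppib, the ER cyclophilin that assists collagen folding, fell by 1.63 ± 0.27 on the log2 scale (adjusted p = 0.00843). Cnpy2 fell by 1.67 ± 0.33 (adjusted p = 0.0132) and Dnajc3, a co-chaperone of Hspa5, fell by 0.57 ± 0.15 (adjusted p = 0.0323). The oxidase Ero1a, which recharges disulfide isomerases, rose by 0.69 ± 0.16 (adjusted p = 0.0216). The number that fell was 2 without middle-aged replicate 1, 3 without middle-aged replicate 3, 3 without VCAM1-negative replicate 1, 1 without VCAM1-negative replicate 2 and 5 without VCAM1-negative replicate 3. Ero1a no longer passed without middle-aged replicate 1 or 3 or VCAM1-negative replicate 1 or 2.

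Genes that act with Serpinh1 on collagen fell in part. Of 22 genes for hydroxylation, isomerization and export of procollagen, 7 fell and 0 rose in VCAM1-negative against middle-aged libraries (median -0.56). Among them were the prolyl isomerases Fkbp7 (log2 fold change -1.45 ± 0.24, adjusted p = 0.00843) and Fkbp14 (-1.17 ± 0.23, adjusted p = 0.0119), the retrieval receptor Kdelr3 (-1.57 ± 0.31, adjusted p = 0.0135) and the prolyl hydroxylase P3h2 (-1.72 ± 0.34, adjusted p = 0.0137). The count was 4 without middle-aged replicate 1, 4 without middle-aged replicate 3 and 2 without VCAM1-negative replicate 2.

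Of 11 procollagen genes, 9 fell and 0 rose (median -1.84). Col3a1, the fibrillar collagen III chain, stood at 337, 303 and 290 RPKM in the middle-aged libraries, at 29.0, 19.4 and 201 in the VCAM1-high, at 20.0 and 6.72 in the VCAM1-low and at 16.7, 6.46 and 32.0 in the VCAM1-negative libraries. Apart from VCAM1-high replicate 3, the geriatric values were far below the middle-aged ones, and the log2 fold change in VCAM1-negative was -4.25 ± 0.77 (adjusted p = 0.0104). VCAM1-high replicate 3 had the highest macrophage (842 RPKM) and endothelial (118 RPKM) marker sums of its gate. The part of other cells in its Col3a1 value was not tested. Col4a2 (-1.60 ± 0.33, adjusted p = 0.0152), Col15a1 (-1.84 ± 0.41, adjusted p = 0.0202) and Col5a3 (-2.33 ± 0.54, adjusted p = 0.0215) had the next smallest p. The count of 9 was 3 without middle-aged replicate 1, 3 without middle-aged replicate 2, 2 without middle-aged replicate 3, 4 without VCAM1-negative replicate 1 and 1 without VCAM1-negative replicate 2. Serpinh1 and the summed procollagens correlated at 0.729 over the 11 libraries, which share the group differences. The sum was even among middle-aged libraries (644, 622 and 692 RPKM), where Serpinh1 itself differed 4-fold between replicates 1 and 3. Fibro-adipogenic progenitors are another collagen-making cell type. Their markers (8 genes, none at 0) had sums of 178, 308 and 903 RPKM for the middle-aged group, with 416 to 855 RPKM across the geriatric gates. Within the VCAM1-high gate replicate 3 had the highest sum, at 614 RPKM. The sum joins genes that moved apart. Dcn stood at 24.5, 52.9 and 485 RPKM in middle-aged against 795, 444 and 704 in VCAM1-negative libraries. Dpt stood at 142, 244 and 249 against 23.3, 9.76 and 48.1. Of the 8 markers, 2 passed as higher and 1 as lower in this comparison. The part of such cells in the procollagen result was not tested.

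Genes of ER-associated degradation mostly did not pass. Of 16 tested, 1 fell, the translocon subunit Sec61b (-1.56 ± 0.37, adjusted p = 0.0232), a share near the 7.38% of all genes, and the median of -0.04 was near that of all genes. Next by adjusted p were Edem1 (0.58 ± 0.19, adjusted p = 0.0686) and Vcp (-0.58 ± 0.21, adjusted p = 0.0845), and neither passed. Of 10 sensors and transcription factors of the unfolded protein response, 1 rose, the Xbp1-splicing sensor Ern1 (0.75 ± 0.21, adjusted p = 0.0418, from 1.51 to 3.19 RPKM), a share near the 7.06% of all genes. Creb3l2 had a log2 fold change of -0.57 ± 0.25 (adjusted p = 0.135), with every VCAM1-negative library below every middle-aged one. Ddit3 had one of 0.84 ± 0.38 (adjusted p = 0.149) and Atf4 of 0.33 ± 0.17 (adjusted p = 0.187). Of 11 targets of Atf4 and Ddit3, 3 rose and 1 fell, with a median of 0.85. Chac1, a glutathione-degrading enzyme, went from 1.31 to 9.37 RPKM (2.14 ± 0.29, adjusted p = 0.00393), the cystathionine lyase Cth from 5.88 to 32.0 (2.28 ± 0.37, adjusted p = 0.0077) and the transcription factor Atf3 from 716 to 1502 (1.06 ± 0.19, adjusted p = 0.00998). Psat1, an enzyme of serine synthesis, fell by 2.37 ± 0.60 (adjusted p = 0.0297). Sec61b and Psat1 did not pass without middle-aged replicate 1 or VCAM1-negative replicate 2 or 3. Ern1 did not pass without any 1 of these, nor without middle-aged replicate 3, VCAM1-high replicate 1 or VCAM1-negative replicate 1.

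**Figure D5:**
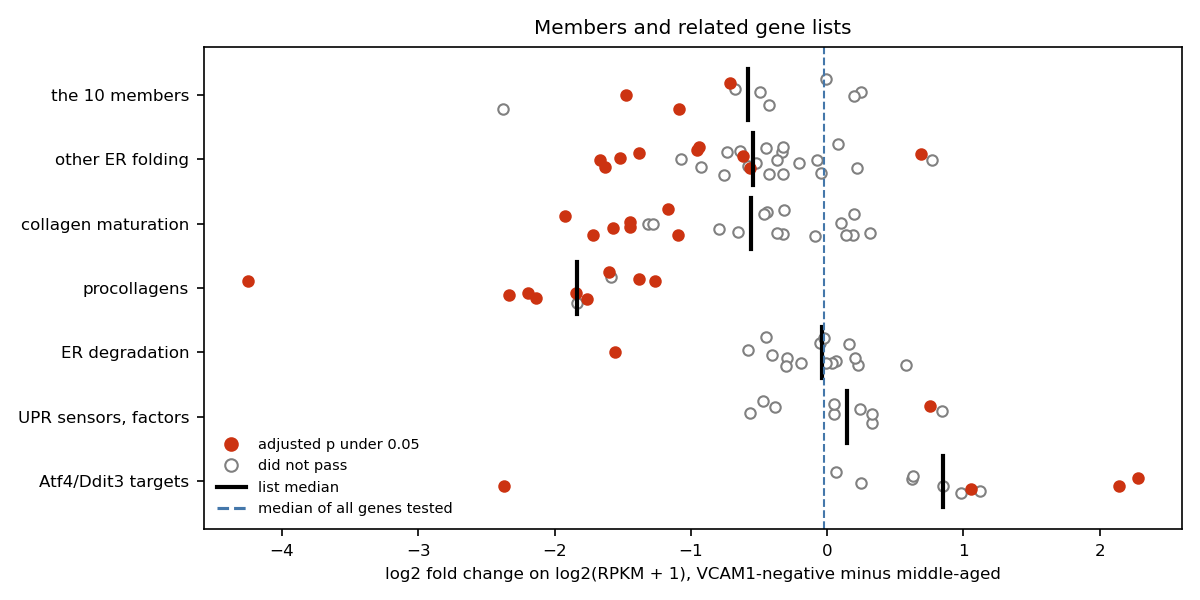
Log2 fold change of each tested gene (points, spread vertically at random) in VCAM1-negative against middle-aged libraries, for the members and 6 related lists; filled points passed at an adjusted p under 0.05, black bars are list medians and the dashed line is the median of all genes tested. Procollagens lie furthest left with a median of -1.84, and the targets of Atf4 and Ddit3 lie to the right with a median of 0.85.

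In VCAM1-negative against VCAM1-high and in VCAM1-high against middle-aged, 0 genes of these 6 lists passed with all libraries and no block. With both replicates 3 left out and no block, Col3a1 (-3.70 ± 0.62, adjusted p = 0.0292) and P3h2 (-1.65 ± 0.29, adjusted p = 0.0354) were lower and Cth (1.73 ± 0.29, adjusted p = 0.0297) higher in VCAM1-high than in middle-aged libraries. Without VCAM1-high replicate 3 alone these 3, Col15a1 and Col1a1 passed. VCAM1-low against middle-aged, where 4.11% of genes were called, called 2 lower of 28 other ER folding genes (Cnpy2 and Ppib), 4 lower of 22 collagen-maturation genes, 5 lower of 11 procollagens and 3 higher of 11 Atf4 and Ddit3 targets. With 1 library left out, these counts ran from 0 to 6, from 0 to 6, from 0 to 10 and from 0 to 3. With the replicate block over 11 libraries, which called 6.98% of all genes, VCAM1-high against middle-aged called 3 lower and 1 higher of the 28 other ER folding genes, 6 lower of the 22 collagen-maturation genes and 5 lower of the 11 procollagens, with Ppib at -0.76 ± 0.17 (adjusted p = 0.0323) and Col3a1 at -2.64 ± 0.54 (adjusted p = 0.0282). It also called 1 lower of 16 ER degradation genes, a share near that of all genes, and 2 higher of 11 Atf4 and Ddit3 targets. With the block over the 8 geriatric libraries, which called 4.42% of all genes, VCAM1-negative against VCAM1-high called 4 lower of 28 ER folding genes, 3 lower of 22 collagen-maturation genes, 1 lower of 16 ER degradation genes and 9 lower of 11 procollagens. Ppib was at -0.87 ± 0.10 (adjusted p = 0.0131) and Crtap, a partner of prolyl 3-hydroxylase, at -1.01 ± 0.12 (adjusted p = 0.0121). Of the 11 Atf4 and Ddit3 targets 2 were higher, Chac1 (1.29 ± 0.21, adjusted p = 0.0237) and Atf3 (0.59 ± 0.12, adjusted p = 0.041), and 1 was lower. With the block over all 11 libraries only Cnpy2 of these lists passed between the outer gates (-0.85 ± 0.14, adjusted p = 0.0374). For plasma cells, which are rich in ER, the 6 listed genes in the table summed to 15.4 to 32.4 RPKM, mostly Sdc1. Jchain and Mzb1 stayed at or under 0.842 RPKM in every library and at 0 in several. Cd79a, also listed, stood at 1.12, 1.43 and 3.09 RPKM in the middle-aged group. Every geriatric library held more of it, between 4.50 and 8.07 RPKM. Of the 2 listed genes tested, 1 passed as higher in each geriatric gate against middle-aged, and 1 had a log2 fold change below 0. The part of such cells in the member differences was not tested.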

How the data were processed

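Per the labels' protocols, cDNA of the sorted cells was made with a SMART-Seq v4 kit and read from both ends. Build GRCm39 and the tools STAR 2.7.5b, Bowtie2 2.1.0, cutadapt 3.1 and SAMtools 0.1.19 are listed in the submitters' processing notes. What each tool did, the read counter, the annotation and the gene lengths remain not given in the sources used here. RPKM values for each gene and library were deposited. A limma model (version 3.58.1, R 4.3.3, variance trend on) with 4 group means was fitted to log2(RPKM + 1) of all 11 libraries. It took the 11568 genes that reached 1 RPKM in 2 or more libraries, and the Benjamini-Hochberg adjustment ran over all of them. A gene was called at an adjusted p under 0.05, with no fold threshold. The fold change understates that of low genes. The procedure was tested on simulated data.

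Same-numbered libraries deviated together from their group means between VCAM1-negative and VCAM1-high (r = 0.414, 0.581 and 0.403). Between VCAM1-high and middle-aged they did so less cleanly (0.211, 0.332 and 0.554). There the different-numbered middle-aged replicate 2 and VCAM1-high replicate 1 also reached 0.331. Between VCAM1-negative and middle-aged they did not (-0.025, 0.033 and 0.081). This pairing comes from the data, not from the labels. Beyond the members, the text names up to 4 genes a list, those of lowest adjusted p, along with the genes most like the members by Pearson's r, predicted genes left out. Crtap was chosen after its values were seen. The members and lists were chosen with earlier results of these data known. Alternatives were other pseudocounts, filters, scalings and sample sets, the replicate block and each library left out in turn.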

Additional observations from a re-analysis of the deposited data

How the results depend on the processing

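Of 580 member fold changes recomputed under an alternative, 533 kept direction and side of the threshold, 23 lost a call, 9 gained one and 15 changed direction. The values that changed direction follow. Hyou1 in VCAM1-negative against VCAM1-high turned to 0.0455 with median ratio scaling and to 0.176 with both replicates 3 left out, an alternative added after the data were seen. Hspa5 in VCAM1-high against middle-aged turned to 0.0242 in the latter, and Calr in VCAM1-negative against middle-aged to 0.0419 with equal RPKM sums and 0.0334 with median ratio scaling. With 1 library left out, these 3 ran from -0.16 to 0.20, from -0.21 to 0.0743 and from -0.22 to 0.25, and in VCAM1-high against middle-aged Calr ran from -0.44 to 0.0244, Canx from -0.43 to 0.0699 and Xbp1 from -0.0269 to 0.19.

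In VCAM1-negative against VCAM1-high, the count of 0 genes became 22 with a pseudocount of 0.1, 18 with a mean of at least 5 RPKM, 13 with equal sums, 16 with median ratio scaling, 1 with both replicates 3 left out, 65 with the replicate block over 11 libraries and 500 with the block over 8, the last also calling 1 member. In VCAM1-high against middle-aged the 70 genes became 20 with no filter on low values, 14 with only these groups' libraries and 807 with the block. In VCAM1-negative against middle-aged, where the replicate numbers do not pair the libraries, the 1671 of 11568 genes and 3 members became 3656 of 11568 and 5 with the block. They became 870 and 0 with no filter, which adds low genes to the adjustment. With only these groups' libraries Pdia4 and Serpinh1 passed. For VCAM1-low, the block gave 1 of 11568 genes against VCAM1-high. Against middle-aged it gave 1827 of 11568 genes and 4 members, and no filter gave 104 genes. The same-numbered libraries of VCAM1-low and middle-aged correlated in their deviations at 0.147 and 0.032 only, so the numbers hardly pair them. The F test gave 39 genes with no filter and 2025 of 11568 genes and 4 members with the block.

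With 1 library left out, gene counts ran from 0 to 128 in VCAM1-negative against VCAM1-high, from 18 to 240 in VCAM1-high against middle-aged, from 339 to 1836 in VCAM1-negative against middle-aged, from 1 to 825 in VCAM1-low against middle-aged, from 0 to 117 in VCAM1-negative against VCAM1-low and from 39 to 633 in the F test. Members called in VCAM1-negative against middle-aged ran from 0 to 3. Of these 11 omissions Pdia4 passed in 7, Pdia6 in 6, Serpinh1 in 3 and Pdia3 in 2. Depth is not the limit for the members, which all lie far above the level of a single read; groups hold 2 or 3 libraries.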
